A study of Mus musculus with 21 samples.

Results

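TTR-1186 and Reference 4 are RNA interference agents directed against Ttr, the gene of transthyretin, a plasma carrier of thyroid hormone and of retinol-binding protein. The comparison described here sets 3 libraries of hepatocytes given TTR-1186 at 2 µM against 3 libraries of hepatocytes given Reference 4 at 2 µM, over all 9657 genes in the files. These 6 libraries, picked by the agent and dose in their titles, are 6 of 21 in the series. All cells were primary hepatocytes of wild-type mice, labelled with Day 1 as the time. The same agents at 0.2 µM (3 libraries each) and PBS, which holds no agent (3 libraries), are used for values set beside the comparison. The rest of the series is TTR-1236 at 0.2 µM and at 2 µM (3 libraries each), whose levels are not described. All 21 libraries entered the estimate of spread behind each limma standard error and p-value. For the mice, neither strain, age nor number is given in the sources used here, and nor is the sequence of either agent. No label ties the libraries of a group to separate animals or cultures. The p-values below therefore reflect the spread among these samples alone, which may be technical.

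In RNA interference a short guide strand is loaded into an Argonaute protein, which cuts or represses messenger RNAs that pair with the guide. Hepatocytes make most plasma proteins, break down amino acids and fats, and store or detoxify metals. In culture they are known to lose many of these specialised transcripts and to gain those of the cytoskeleton. A comparison of 2 agents against the same target at the same dose asks which transcripts other than the target differ between them.

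Expression was read from the 3′ ends of polyadenylated RNA and is given in CPM, the reads of a gene scaled to a library total of 1000000 reads in the genes of the files. The TTR-1186 libraries held 35065348, 22296414 and 26990803 reads and the Reference 4 libraries 18802476, 32927430 and 29523758. Differences are TTR-1186 minus Reference 4 on the scale of log2(CPM + 1), ± the standard error, tested with limma. Genes called risen or fallen with TTR-1186 are those with a Benjamini-Hochberg adjusted p, over all genes, under 0.05. TTR-1186 replicate 2 stood apart, with 109 genes at 0 CPM against 0 to 26 in the other 5 libraries and with the lowest correlations inside its group (0.924). Markers of hepatocytes were present in all 6 libraries at very different levels. Alb, the gene of albumin, stood at 4712 to 5356 CPM with TTR-1186 and 5894 to 6913 CPM with Reference 4, while Cps1, a urea cycle enzyme chosen after its values were seen, stood at 6.46 to 12.7 CPM with TTR-1186 and 17.7 to 18.6 CPM with Reference 4.

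Residual Ttr was low with both agents. It stood at 7.59, 15.1 and 10.4 CPM with TTR-1186 (266, 336 and 281 reads), at 27.1, 17.4 and 12.9 CPM with Reference 4 (510, 573 and 382 reads), and at 2258 CPM on average with PBS. TTR-1186 had the lowest library and Reference 4 the highest, and the groups overlapped. The difference of -0.73 ± 0.42 (95% interval -1.60 to 0.14) did not pass (limma adjusted p = 0.503), and its interval held both an equal Ttr level and a 2-fold lower level with TTR-1186. In its 15 alternative analyses the difference lay between -0.46 and -0.97.

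Outside Ttr, 36 of 9657 genes (0.373%) passed, 22 higher with TTR-1186 (0.228%) and 14 lower (0.145%). The genes that fell were led by Fabp1 and Hpd, a lipid carrier and a tyrosine-degrading enzyme of mature hepatocytes, and included the metallothionein Mt1, the growth factor binder Igfbp1, the acute phase protein gene Lcn2 and the interferon regulator Irf7. Those that rose included Fdps of sterol synthesis, the actin regulator Dstn and the transcription factor genes Irf2 and Sox4. The difference was at least 1 on the log2(CPM + 1) scale in 17 of the genes that rose and in 9 of those that fell. In all 36 the 3 TTR-1186 libraries lay entirely above or below the 3 Reference 4 libraries, as they did for 18.3% of all genes. On the reads recovered from the CPM, edgeR called 36 genes, of which 34 were among these 36, and DESeq2 called 127, which held all 36.

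**Figure D1:**
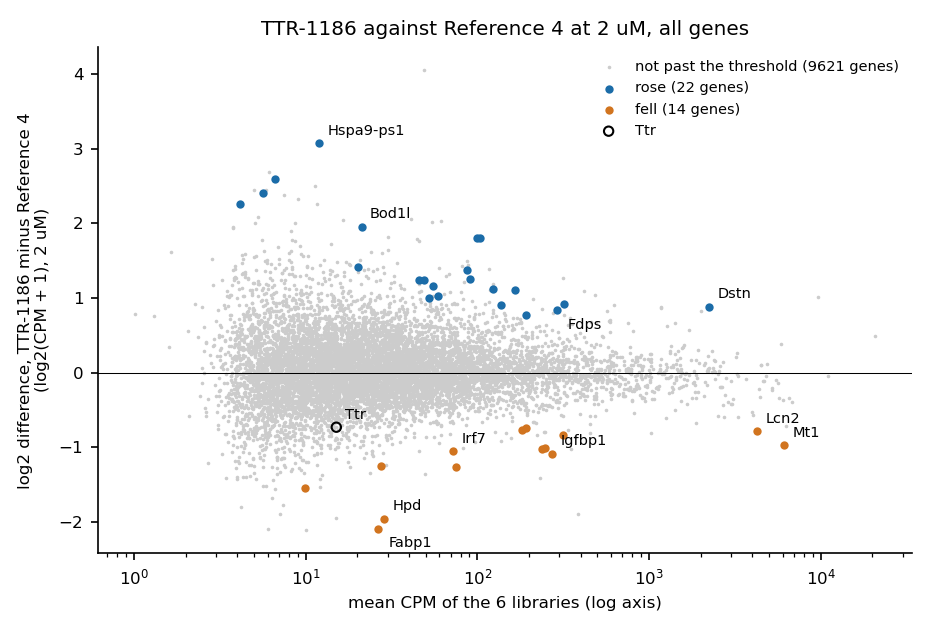
Each point is 1 gene, with its mean CPM over the 6 libraries on a log axis and its log2 difference, TTR-1186 minus Reference 4 at 2 µM. The 22 genes that rose and the 14 that fell lie at low and at high levels, with Mt1 and Lcn2 the most abundant among those that fell and Dstn among those that rose, while Ttr (open circle) is inside the cloud.

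Each fit without 1 library left 2 in its group, so the effect of fewer libraries and of the library removed cannot be told apart. The count varied with the library left out. Without Reference 4 replicate 1 it was 2 genes, Fdps and the pseudogene Hspa9-ps1, which also passed in each of the other 5 fits that left out 1 library. Without Reference 4 replicate 3 it was 8, and without TTR-1186 replicate 3 it was 10. The count was 30 without Reference 4 replicate 2 and 48 without TTR-1186 replicate 1. Without TTR-1186 replicate 2, the library that stood apart, 27 genes passed, 22 of them higher, and 13 of the 27 were among the 36. Those 13 included Fdps, Dstn, Ptma, Ppp2r5b, Mt1, Igfbp1, Cdo1, Hpd and Fabp1, whereas the other genes named by rule were lost. Mt1, Igfbp1 and Gm43738, a predicted gene that overlaps Fdps, passed in 5 of these 6 fits, being lost without Reference 4 replicate 1, and the number of fits passed is given below for the genes described.

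Igfbp1, which encodes an insulin-repressed liver protein that binds insulin-like growth factors, was 2-fold lower with TTR-1186. Its level was 140.4, 194 and 188 CPM with TTR-1186, 419, 352 and 336 CPM with Reference 4 and 386 ± 38.4 CPM with PBS (SD, n = 3). All TTR-1186 libraries lay below all Reference 4 and PBS libraries. The difference was -1.09 ± 0.18 (limma adjusted p = 0.00613), and -0.99 with an adjusted p of 0.0665 without Reference 4 replicate 1. At 0.2 µM the means were 157 ± 39.2 CPM with TTR-1186 and 144 ± 9.59 CPM with Reference 4 (SD, n = 3 each), both below the Reference 4 libraries at 2 µM. The gene lies on the plus strand of mouse chromosome 11 (mm10 11:7197782-7202546). The 250 bases before its RefSeq start are shown because, in human and rat, insulin is known to repress the gene through an element in this stretch. The capitals mark the single match to the insulin response sequence CAAAACAA, searched on both strands of chr11:7197537-7197786 (GRCm38.p6, plus strand), 108 bases before the start. Of 6911 genes in the files with a RefSeq promoter, 1.97% held these letters in the same window, and 22 of the 36 genes had an entry.
Igfbp1: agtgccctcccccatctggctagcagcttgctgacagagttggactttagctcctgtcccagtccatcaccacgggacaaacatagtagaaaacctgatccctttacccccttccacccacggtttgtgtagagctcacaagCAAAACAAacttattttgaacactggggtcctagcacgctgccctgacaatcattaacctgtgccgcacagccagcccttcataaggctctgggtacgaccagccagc

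Of 22 measured genes of insulin and glucose metabolism, Igfbp1 was the 1 that passed, where 0.373% of all genes did. The list held 15 members lower and 7 higher with a median difference of -0.21, beside 4708 lower and 4949 higher and a median of 0.01 over all genes. Its 0.2 µM median was -0.08.

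A metallothionein and a metal importer fell with TTR-1186. Mt1, which binds zinc and copper in the cell, had 4244, 4085 and 4012 CPM with TTR-1186, 10023, 7625 and 6837 CPM with Reference 4 and 4615 ± 367 CPM with PBS (mm10 8:94179082-94180327, plus strand). The TTR-1186 and PBS values lay close together and below every Reference 4 library. The difference was -0.97 ± 0.15 (limma adjusted p = 0.00465), and -0.81 with an adjusted p of 0.0665 without Reference 4 replicate 1. Slc39a14, an importer of zinc and iron, had 14.7, 10.6 and 23.4 CPM with TTR-1186 and 46.2, 37.3 and 32.2 CPM with Reference 4. It fell by 1.25 ± 0.28 (limma adjusted p = 0.0431), and the call held in 1 of the 6 fits without 1 library. Its PBS level of 32.8 ± 8.36 CPM was on the side of Reference 4. Hamp, the gene of the iron hormone hepcidin, differed by -1.35 ± 0.41 with an adjusted p of 0.174 in limma. Mt2, a second metallothionein, differed by -0.40 ± 0.14 with an adjusted p of 0.226. Of the 17 members measured, 2 fell and 0 rose, beside 0.145% of all genes that fell and 0.228% that rose. In the list 11 were lower and 6 higher with a median of -0.19, beside 4708 lower and 4949 higher of all genes. The libraries did not overlap for 6 members, all lower with TTR-1186 (35.3% of the list), beside 8.53% of all genes.

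Lcn2 (mm10 2:32384633-32388252, minus strand), whose siderophore-binding protein the liver secretes in inflammation, was the gene of the acute phase list that passed. It had 3226, 2885 and 3286 CPM with TTR-1186, 5925, 4775 and 5534 CPM with Reference 4 and 3367 ± 302 CPM with PBS. TTR-1186 overlapped the PBS libraries (3138 to 3708 CPM) and Reference 4 lay above both. The difference was -0.79 ± 0.16 (limma adjusted p = 0.0278), passing in 2 of the 6 fits without 1 library. Saa3, a serum amyloid gene, stood at 115, 101 and 103 CPM with TTR-1186 and 213, 175 and 173 CPM with Reference 4, an unpassed difference of -0.80 ± 0.20 (limma adjusted p = 0.0883). Of 26 acute phase genes measured 1 passed, where 0.373% of all genes did. In the list 23 were lower and 3 higher, with a median of -0.30. The 3 TTR-1186 libraries lay below the 3 Reference 4 libraries for 11 of them (42.3%, against 8.53% of all genes) and above for 2 (7.69%, against 9.81%). The 0.2 µM median of the list was -0.13.

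Irf7 (mm10 7:141262706-141266481, minus strand), the regulator that amplifies type I interferon responses, fell with TTR-1186. It had 59.9, 36.9 and 43.0 CPM with TTR-1186, 118, 74.1 and 101 CPM with Reference 4 and 59.9 ± 5.58 CPM with PBS. The groups were separate but close, since the highest TTR-1186 library was 59.9 CPM and the lowest Reference 4 library 74.1 CPM. The difference was -1.05 ± 0.22 (limma adjusted p = 0.0321), passing in 2 of the 6 fits without 1 library. Its end overlaps that of Phrf1 on the other strand of chromosome 7. Since no strand setting is stated, reads of both genes may be mixed, which was not tested. Phrf1 differed by 0.93 ± 0.33 (limma adjusted p = 0.245). Irf2 (mm10 8:46739732-46847458, plus strand), known as a repressor of interferon-responsive promoters, rose. It had 24.7, 32.9 and 32.1 CPM with TTR-1186, 9.25, 11.97 and 10.4 CPM with Reference 4 and 18.3 ± 4.44 CPM with PBS, so PBS lay between the agents. The difference was 1.42 ± 0.30 (limma adjusted p = 0.0321), passing in 1 of the 6 fits without 1 library. Among 39 interferon response genes, which do not include Irf2, 1 fell and 0 rose, beside 0.145% and 0.228% of all genes. Of the 39, 31 were lower and 8 higher with a median of -0.36, beside 4708 lower and 4949 higher of all genes. The list's 0.2 µM median was -0.29, and its 2 µM medians against PBS were -0.12 with TTR-1186 and 0.28 with Reference 4.

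Metabolic genes of mature hepatocytes gave the steepest falls. Fabp1, the liver fatty acid-binding protein, had 7.44, 13.5 and 7.11 CPM with TTR-1186, 54.0, 48.7 and 27.1 CPM with Reference 4 and 18.8 ± 4.29 CPM with PBS. Every TTR-1186 library was below every PBS library and every Reference 4 library above them. The difference was -2.09 ± 0.40 (limma adjusted p = 0.0208), passing in 3 of the 6 fits without 1 library. The 250 bases before its RefSeq start (chr6:71199629-71199878, GRCm38.p6, plus strand) are shown because the gene is a textbook target of the fatty acid receptor PPAR alpha, which binds repeats of the nuclear receptor half-site AGGTCA. Capitals mark the 2 matches to a single half-site on either strand, 67 and 9 bases before the start. At least 1 such match was held by 13.6% of the 6911 promoters. The 2 matches are not adjacent, and repeats of the half-site were not searched.
Fabp1: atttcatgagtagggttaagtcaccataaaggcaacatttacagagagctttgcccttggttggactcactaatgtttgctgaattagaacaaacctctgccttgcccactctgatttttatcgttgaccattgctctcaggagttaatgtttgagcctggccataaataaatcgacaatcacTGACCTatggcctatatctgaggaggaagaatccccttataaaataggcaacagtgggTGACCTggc

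The list of 31 hepatocyte identity genes had 25 members lower and 6 higher with TTR-1186 and a median of -0.35. Fabp1 was its single member past the threshold, which 0.373% of all genes passed. Serpina1d, an alpha-1-antitrypsin gene, differed by -0.80 ± 0.19 without passing (limma adjusted p = 0.054). The summed level of the list was 48250, 39612 and 45226 CPM with TTR-1186, 63100, 54398 and 53356 CPM with Reference 4 and 45358 to 58117 CPM with PBS. The 2 agents did not overlap in this sum, while PBS overlapped both. The libraries were separate for 16 members that were lower (51.6%, against 8.53% of all genes) and 3 that were higher (9.68%, against 9.81%). The 0.2 µM median was 0.06, near the median of all genes. In bulk RNA, fewer cells of a type and less RNA per cell cannot be told apart.

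Of 23 measured genes of the urea cycle and amino acid metabolism 3 fell, Gnmt, Hpd and Bhmt, and 0 rose, beside 0.145% of all genes that fell. Gnmt, which uses up methyl donors by methylating glycine, had 54.7, 31.8 and 43.6 CPM with TTR-1186, 143, 106 and 73.0 CPM with Reference 4 and 55.2 ± 17.7 CPM with PBS (-1.27 ± 0.26, limma adjusted p = 0.0278). Hpd, the 4-hydroxyphenylpyruvate dioxygenase of tyrosine breakdown, had 10.6, 10.1 and 8.52 CPM with TTR-1186 and 78.0, 46.4 and 18.1 CPM with Reference 4. Its TTR-1186 libraries were tight, and its Reference 4 libraries spread over 4-fold (-1.96 ± 0.36, limma adjusted p = 0.0208). Hpd lies inside Psmd9 on the other strand of chromosome 5, and Psmd9 differed by -0.55 ± 0.33 (adjusted p = 0.535). Bhmt, which remethylates homocysteine with betaine, had 7.07, 2.69 and 4.45 CPM with TTR-1186 and 17.8, 15.4 and 12.3 CPM with Reference 4 (-1.55 ± 0.34, limma adjusted p = 0.0434, and 0.0565 in edgeR). The end of Bhmt matches 27 other genes, 12 of them in the files, the longest match being 176 bases at 97.7% identity with a predicted gene. Its mean over the 6 libraries was also low, at 9.94 CPM, so its value is uncertain. Cdo1, the cysteine dioxygenase, which is in no list, had 226, 239 and 213 CPM with TTR-1186, 424, 401 and 385 CPM with Reference 4 and 369 ± 87.5 CPM with PBS (-0.83 ± 0.16, limma adjusted p = 0.0208). Gnmt passed in 2, Hpd in 3, Bhmt in 1 and Cdo1 in 3 of the 6 fits without 1 library. Of the 23 list members 15 were lower and 8 higher, with a median of -0.24, and -0.15 at 0.2 µM.

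**Figure D2:**
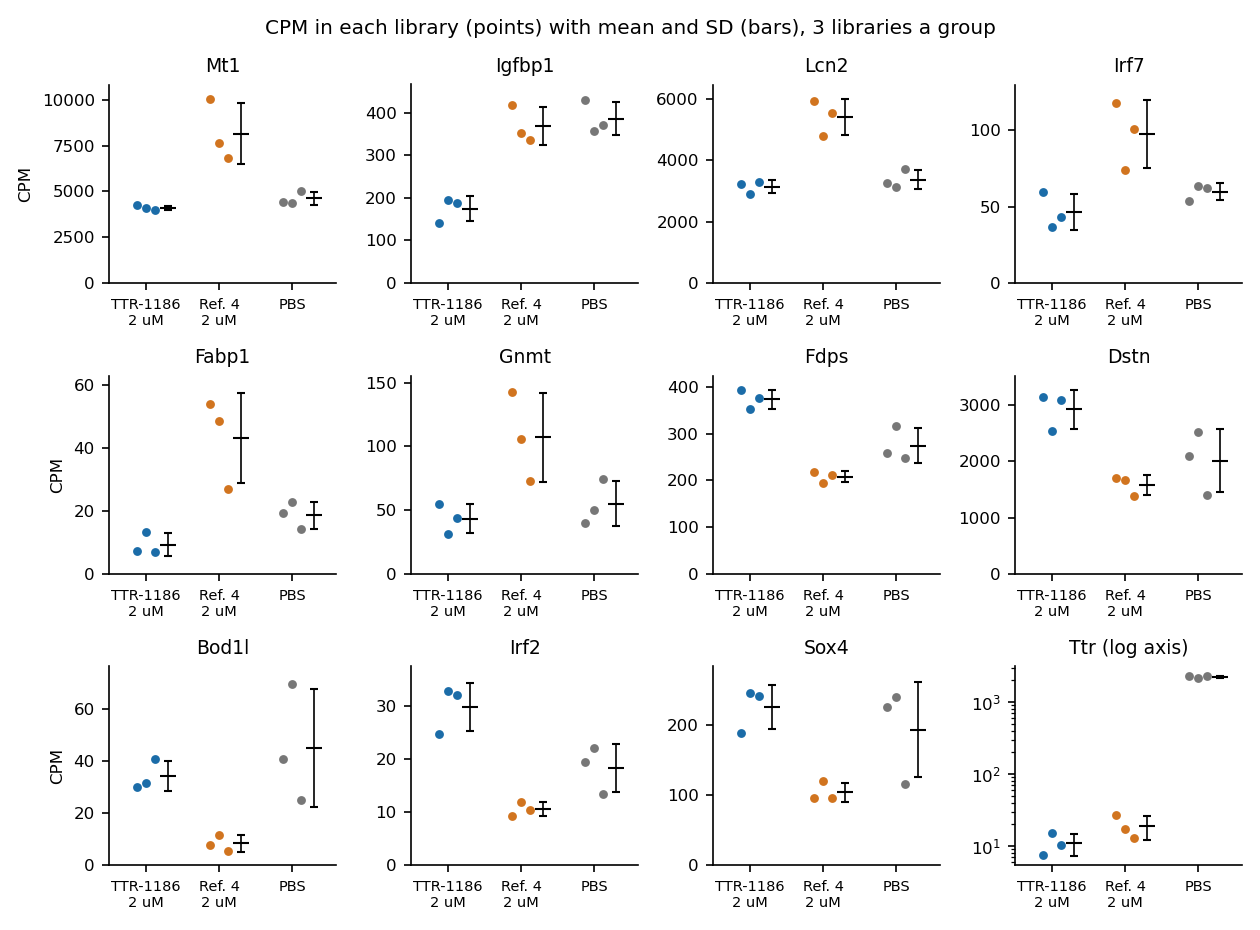
CPM of 12 genes in each library (points), with the mean and SD of the 3 libraries of a group (bars), for TTR-1186 at 2 µM, Reference 4 at 2 µM and PBS. Mt1, Lcn2 and Irf7 have TTR-1186 near PBS and Reference 4 above, Igfbp1 has TTR-1186 alone below, Fdps and Irf2 have PBS between the agents, and the Ttr panel has a log axis.

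A pair of genes of mitochondrial function fell. Bnip3, a receptor that marks mitochondria for autophagy, had 209, 143 and 144 CPM with TTR-1186, 369, 312 and 309 CPM with Reference 4 and 250.1 ± 41.4 CPM with PBS. The PBS libraries (204 to 285 CPM) lay below Reference 4 and reached into the TTR-1186 range, and the difference was -1.01 ± 0.20 (limma adjusted p = 0.0250). Atp5g2, a gene of the ATP synthase ring subunit c, had 128, 138 and 164 CPM with TTR-1186, 229, 218 and 277 CPM with Reference 4 and 141 ± 3.73 CPM with PBS. Here TTR-1186 was at the PBS level, and the difference was -0.75 ± 0.17 (limma adjusted p = 0.0477). Atp5g2 was lost in each of the 6 fits without 1 library, and Bnip3 passed in 2. Of 78 nuclear genes of the respiratory chain Atp5g2 was the 1 that passed, where 0.373% of all genes did. In the list 29 were higher and 49 lower, with a median of -0.06. Of 13 messenger RNAs encoded by mitochondrial DNA 0 passed, with mt-Cytb at -0.55 ± 0.20 and mt-Atp6 at -0.43 ± 0.14 (limma adjusted p = 0.250 and 0.226) and a median of -0.09.

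Fdps (mm10 3:89093588-89101959, minus strand), the farnesyl diphosphate synthase of sterol and isoprenoid synthesis, rose with TTR-1186 and had the smallest standard error of the genes that rose. It had 393, 352 and 376 CPM with TTR-1186, 218, 196 and 212 CPM with Reference 4 and 274 ± 37.8 CPM with PBS. PBS lay between the agents without reaching either group. The difference was 0.84 ± 0.13 (limma adjusted p = 0.00465) and lay between 0.80 and 0.88 in the 6 fits without 1 library. Gm43738, which overlaps Fdps on the same strand of chromosome 3, rose by 0.90 ± 0.15 with a CPM ratio to Fdps of 0.44 to 0.50 in the 6 libraries, so their reads are not independent. Of 25 sterol synthesis genes 1 passed, where 0.373% of all genes did. In the list 20 were higher and 5 lower, and the median was 0.30, with 0.21 at 0.2 µM. The TTR-1186 libraries lay above the Reference 4 libraries for 8 members (32%, against 9.81% of all genes) and below for 1. Hmgcs1, an early enzyme of the pathway, and Mvd, a decarboxylase further down, chosen after their values were seen, differed by 0.61 and 0.63 without passing (limma adjusted p = 0.139 and 0.282).

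Dstn (mm10 2:143915320-143943324, plus strand), which encodes destrin, a protein that severs and depolymerises actin filaments, was the most abundant gene that rose. It had 3138, 2525 and 3084 CPM with TTR-1186, 1697, 1657 and 1383 CPM with Reference 4 and 2005 ± 559 CPM with PBS. The PBS libraries spread from 1405 to 2511 CPM, across the gap between the agents. The difference was 0.88 ± 0.19 (limma adjusted p = 0.0365), passing in 1 of the 6 fits without 1 library. The cytoskeleton and dedifferentiation list, which does not hold Dstn, had 0 of 42 members past the threshold, 24 higher and 18 lower, and a median of 0.10. Its smallest p-values were those of Actn1, an actin crosslinker, at 670, 713 and 817 CPM with TTR-1186 and 407, 507 and 442 CPM with Reference 4, and of Actb, cytoplasmic actin, at 24812, 22049 and 25679 CPM with TTR-1186 and 17914, 17328 and 16400 CPM with Reference 4. Their differences of 0.70 ± 0.16 and 0.49 ± 0.12 did not pass (limma adjusted p = 0.0638 and 0.0906). For 15 members the TTR-1186 libraries lay above the Reference 4 libraries (35.7%, against 9.81%), and for 1 below.

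**Figure D3:**
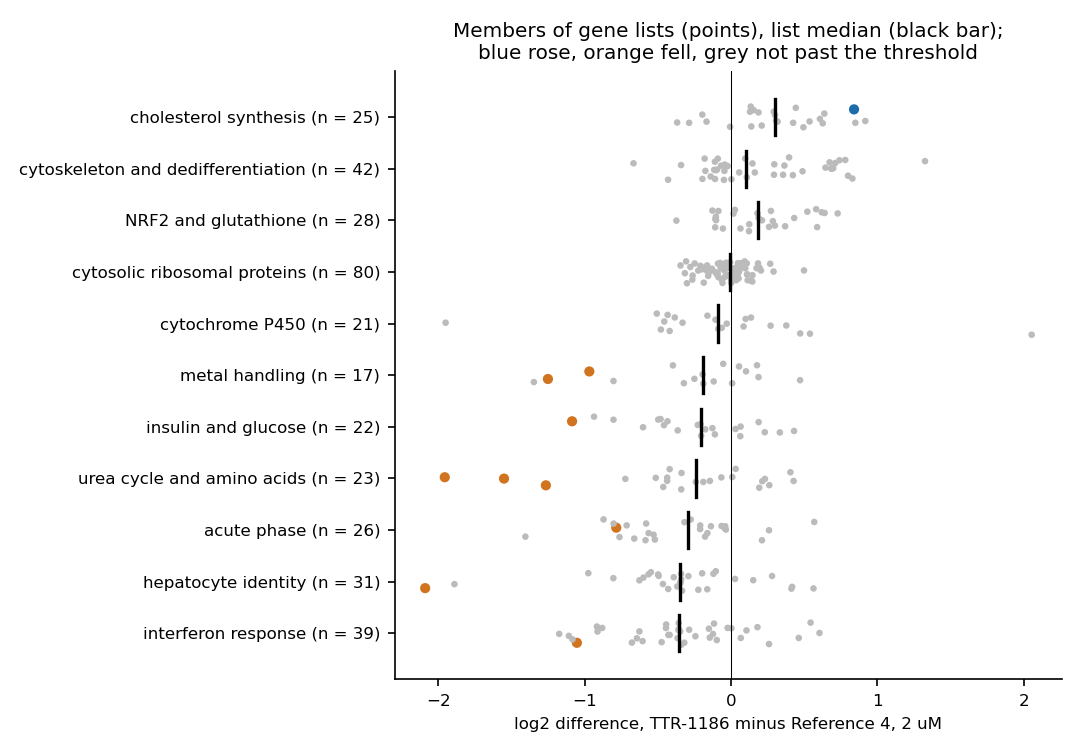
Members of 11 gene lists (points) by their log2 difference, TTR-1186 minus Reference 4 at 2 µM, with the list's median as a black bar; members that rose are blue and those that fell orange. Sterol synthesis has its median at 0.30, ribosomal proteins at -0.01, and the metal, insulin, amino acid, acute phase, hepatocyte and interferon lists between -0.19 and -0.36.

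Sox4, Ptma, Rbm8a, Acbd3 and Ttc3 were among the other genes that rose. Sox4, a developmental transcription factor, had 189, 246 and 243 CPM with TTR-1186 and 96.5, 120.2 and 96.3 CPM with Reference 4, a difference of 1.11 ± 0.23 (limma adjusted p = 0.0321). PBS varied from 115 to 240.0 CPM, over the range of both agents. Ptma, the histone-binding protein prothymosin alpha, had 412, 347 and 506 CPM with TTR-1186 and 205, 252 and 207 CPM with Reference 4 (0.92 ± 0.20). Rbm8a, a core protein of the exon junction complex, had 206, 278 and 245 CPM with TTR-1186 and 158, 141 and 128 CPM with Reference 4 (0.77 ± 0.16). Both have near-identical copies in the genome, so their values are uncertain. Acbd3, a Golgi scaffold protein, had 71.5, 67.1 and 90.0 CPM with TTR-1186 and 29.7, 39.2 and 31.7 CPM with Reference 4 (1.16 ± 0.25). Ttc3, a ubiquitin ligase, had 60.9, 66.4 and 66.1 CPM with TTR-1186 and 32.7, 24.2 and 24.5 CPM with Reference 4 (1.23 ± 0.27), with an adjusted p of 0.0439 in limma and 0.0765 in edgeR. In Ptma, Rbm8a and Acbd3 the limma adjusted p was 0.0334, 0.0322 and 0.0365. The end of Sox4 matches 263 bases of Gm26735, and that of Ttc3 205 bases of Pigp, at 100% identity on the other strand. Neither partner is among the genes in the files. With the strand setting unstated, reads may be mixed there, which was not tested. Acbd3 and Ttc3 were lost in each of the 6 fits without 1 library, Rbm8a passed in 1, and Sox4 and Ptma passed in 2. Hlf, a transcription factor of the circadian output, was under 10 CPM and outside the rule for named genes, and was chosen after its values were seen. It had 6.79, 10.8 and 5.19 CPM with TTR-1186, 0.691, 1.03 and 0.508 CPM with Reference 4 and 4.72 ± 1.66 CPM with PBS (2.26 ± 0.44, limma adjusted p = 0.0250), and it passed in 3 of the 6 fits without 1 library.

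Some of the 36 genes are not independent readings. Lrrc17 and the small non-coding RNA Bc1 share 91 bases, and their CPM ratio stayed between 0.94 and 0.97 in the 6 libraries. Bc1 had 123, 269 and 97.8 CPM with TTR-1186 and 43.3, 63.0 and 26.7 CPM with Reference 4 (1.80 ± 0.36, limma adjusted p = 0.0278), so TTR-1186 replicate 2 was its highest library, and without it the difference was 1.37 with an adjusted p of 0.0782. Atp5g2 and Gm10175 share their last 400 bases at 100% identity (ratio 0.93 to 0.98). Bnip3 and its antisense gene Gm45507 (ratio 0.95 to 0.98) and Vti1b and Arg2 on chromosome 12 (Arg2 to Vti1b 0.87 to 0.90) overlap on opposite strands. The reads of such a pair cannot be assigned to 1 strand with the strand setting unstated. Ppp2r5b and Gpha2 on chromosome 19 (Gpha2 to Ppp2r5b 0.52 to 0.56) lie on opposite strands and overlap only at bases 6227765 to 6227768. The search of transcript ends found no match between them, and the source of their steady ratio was not tested. The pair of Ppp2r5b, a regulatory subunit of the phosphatase PP2A, and Gpha2, a hormone subunit gene, was at 129, 138 and 117 CPM with TTR-1186 and 49.1, 67.8 and 44.4 CPM with Reference 4 at Ppp2r5b (1.25 ± 0.23, limma adjusted p = 0.0208). The pair of Vti1b, a SNARE protein of endosomes, and Arg2, the mitochondrial arginase, was at 61.3, 96.4 and 80.7 CPM with TTR-1186 and 31.8, 48.5 and 35.4 CPM with Reference 4 at Vti1b (1.02 ± 0.22, limma adjusted p = 0.0399). Bc1 passed in 3, Ppp2r5b in 4 and Vti1b in 2 of the 6 fits without 1 library. Of the genes that rose 5 were pseudogenes, and of those that fell 1. Among the pseudogenes that rose, Gm13034 and Gm13135 share 400 bases (ratio 0.74 to 1.07 in the 6 libraries). AC144860.3 and Amd-ps3 also share 400 bases, at 97.0% identity (ratio 0.56 to 0.81).

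The pseudogene Hspa9-ps1 had the largest difference among the genes that passed and is given although its kind is outside the rule for named genes. It had 22.8, 9.06 and 35.2 CPM with TTR-1186, 1.70, 2.31 and 0.644 CPM with Reference 4 and 73.6, 42.9 and 16.9 CPM with PBS. Reference 4 was below every other library of this set, at a level where the PBS and TTR-1186 libraries themselves spread over 3-fold. The difference was 3.07 ± 0.47 (limma adjusted p = 0.00465). It shares 83 bases at 96.4% identity with Hspa9, so the origin of its reads is uncertain. Mup-ps17, a pseudogene of the major urinary proteins chosen after its values were seen, had a larger difference of 4.05 ± 1.14 that did not pass (limma adjusted p = 0.174). Its levels were 139, 37.7 and 85.1 CPM with TTR-1186 and 2.18, 31.1 and 0 CPM with Reference 4.

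Bod1l (mm10 5:41787538-41844315, minus strand), a gene that protects stalled replication forks, was the longest transcript among the genes that rose, with 10540 annotated bases. It had 29.97, 31.5 and 40.6 CPM with TTR-1186, 7.82, 11.6 and 5.45 CPM with Reference 4 and 40.8, 69.4 and 24.8 CPM with PBS. TTR-1186 lay in the lower part of the PBS range and Reference 4 below it, and the difference was 1.96 ± 0.40 (limma adjusted p = 0.0284, 2 of the 6 fits without 1 library). It belongs to 12 long transcripts that an earlier analysis of these libraries named for their fall against PBS at 2 µM, so their direction here is not independent evidence. All 12 were higher with TTR-1186 than with Reference 4, with a median of 1.17 at 2 µM and -0.09 at 0.2 µM, and Bod1l alone passed. Apob, whose protein builds very low density lipoprotein, is 1 of them and had 128, 41.2 and 121 CPM with TTR-1186 and 38.8, 36.4 and 29.5 CPM with Reference 4, which did not pass (1.29 ± 0.44, limma adjusted p = 0.245). In Apob TTR-1186 replicate 2 was close to the Reference 4 libraries, and in Bod1l it was not.

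Over all protein coding genes, sorted into 5 groups of near equal size by their longest annotated transcript, the median difference was -0.07 in the shortest group (up to 1888 bases), then -0.03, 0.01 and 0.04, and 0.13 in the longest (from 5215 bases). The genes that fell were mostly short, with 9 in the shortest group and 0 in the longest, while 4 and 3 of those that rose were in these groups. The 5 medians at 0.2 µM lay between 0.01 and 0.03. The share of reads from mitochondrial ribosomal RNA, which also varied between libraries, was 1.95, 0.622 and 2.21% with TTR-1186, 1.10, 0.819 and 0.383% with Reference 4 and 3.26, 2.70 and 0.797% with PBS. The agents overlapped in this share (two-sided exact permutation test, p = 0.3, where 0.1 is the smallest p that 3 against 3 allows). Its part in the differences by length was not tested.

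**Figure D4:**
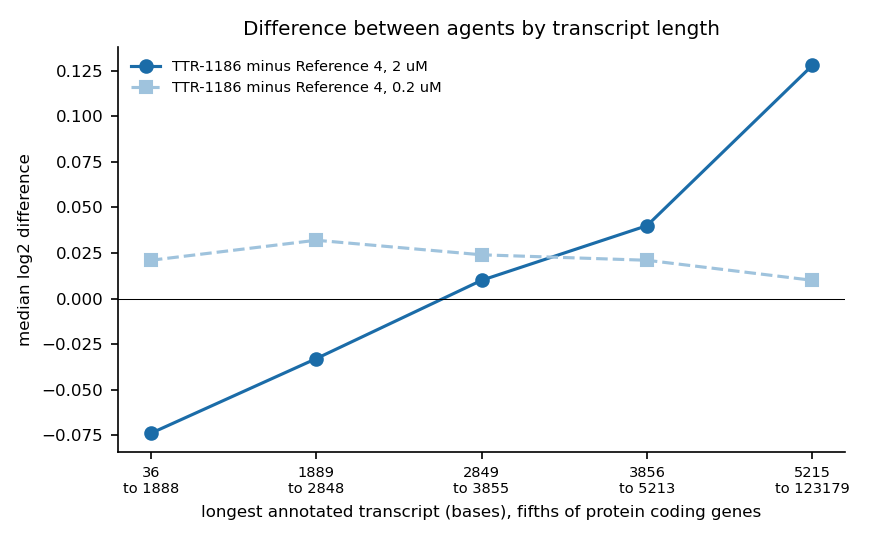
Median log2 difference, TTR-1186 minus Reference 4, of protein coding genes in 5 groups of near equal size by longest annotated transcript (bases), at 2 µM (circles) and 0.2 µM (squares). At 2 µM the median goes up from -0.07 in the shortest group to 0.13 in the longest, and at 0.2 µM it stays between 0.01 and 0.03.

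Markers of other liver cells were sparse. Of 16 stellate cell and fibroblast markers 3 were among the genes in the files, Sparc, Dcn and Bgn, and their summed level was 49.1, 65.7 and 48.5 CPM with TTR-1186 and 31.2, 31.4 and 38.5 CPM with Reference 4. All 3 were higher with TTR-1186 and 0 passed, with Sparc, a matrix-binding protein, at 0.67 ± 0.26 (limma adjusted p = 0.287). Of 18 Kupffer cell and leukocyte markers 2 were in the files, Cd68 and Csf1r, with a sum of 112, 120 and 77.2 CPM with TTR-1186 and 157, 148 and 128 CPM with Reference 4, and Cd68, a lysosomal protein of macrophages, at -0.54 ± 0.24 (adjusted p = 0.357). Endothelial markers (4 of 14) summed to 99.3 to 109 CPM with TTR-1186 and 108 to 113 CPM with Reference 4. Cholangiocyte markers (4 of 10) summed to 155 to 185 CPM with TTR-1186 and 167 to 216 CPM with Reference 4. In both lists 0 passed. The part of these cells in the differences between the agents was not tested.

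The lists of RNA interference itself held 0 genes past the threshold. Of 21 genes of the RNA interference and RNA decay machinery 14 were higher and 7 lower, with a median of 0.04. Ago2, the guide-loaded nuclease, had 107, 87.2 and 109 CPM with TTR-1186 and 104, 74.2 and 56.7 CPM with Reference 4 (0.40 ± 0.21, limma adjusted p = 0.436). Xrn2, a nuclear exonuclease, differed by 0.92 ± 0.31 and Ddx6, a helicase of RNA decay bodies, by 0.67 ± 0.23 (limma adjusted p = 0.227 and 0.226). Genes of asialoglycoprotein uptake, endosomes and lysosomes, the route that many liver-directed agents take, had 15 of 31 higher and 16 lower, with a median of -0.03.

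Stress and signalling lists also held 0 genes past the threshold. Of 28 antioxidant and glutathione genes 20 were higher, with a median of 0.18, and Gclm, a subunit of glutathione synthesis, differed by 0.62 ± 0.20 (limma adjusted p = 0.185). In 30 genes of the unfolded protein response the median was -0.04, with the stress factor Atf5 at 0.67 ± 0.21 and the chaperone Hspa5 at 0.54 ± 0.18 (limma adjusted p = 0.185 and 0.222). The 15 heat shock genes had a median of -0.02, although Hsp90ab1 stood at 2423, 2409 and 2826 CPM with TTR-1186 and 1731, 1513 and 1136 CPM with Reference 4 (0.82 ± 0.24, limma adjusted p = 0.174). Among 15 NF-kB and chemokine genes the median was -0.06, and Mif, a macrophage cytokine, had 1727, 1307 and 1331 CPM with TTR-1186 and 2179, 2313 and 2426 CPM with Reference 4 (-0.68 ± 0.17, limma adjusted p = 0.0883). Medians were 0.15 over 19 genes of JAK-STAT signalling, -0.005 over 19 cell cycle genes and -0.03 over 19 p53 targets. At 0.2 µM the cell cycle median was 0.32.

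Lipid, detoxification and plasma protein lists varied by gene, and 0 of their members passed. The median was 0.05 over 20 genes of fatty acid synthesis, 0.02 over 22 of fatty acid oxidation, 0.04 over 7 of bile acids, -0.08 over 20 of lipoproteins, -0.09 over 21 cytochrome P450 genes and -0.02 over 30 of complement and coagulation. Cyp2e1, which metabolises ethanol, had 7.70, 2.87 and 6.30 CPM with TTR-1186 and 30.8, 29.3 and 13.8 CPM with Reference 4 (-1.95 ± 0.55, limma adjusted p = 0.141). Vnn1, a pantetheinase induced by fatty acid receptors, went the other way, with 6.16, 23.95 and 11.3 CPM with TTR-1186 and 2.71, 2.31 and 3.42 CPM with Reference 4 (1.78 ± 0.42, limma adjusted p = 0.0638). Both genes had separate groups, with TTR-1186 replicate 2 the lowest library in Cyp2e1 and the highest in Vnn1. Thrsp, a regulator of fat synthesis, differed by -1.24 ± 0.33 and the complement gene C2 by -0.86 ± 0.22 (limma adjusted p = 0.111 and 0.101). A list of 8 genes of retinol and thyroid hormone transport and response, which also holds Thrsp, had a median of -0.11. Rbp4, the retinol-binding protein that transthyretin carries, had 1110, 1084 and 933 CPM with TTR-1186 and 1179, 1246 and 1155 CPM with Reference 4 (-0.20 ± 0.11, limma adjusted p = 0.506). Serpina7, which encodes the thyroxine-binding globulin, had 82.3, 78.5 and 89.0 CPM with TTR-1186 and 18.7, 63.6 and 51.4 CPM with Reference 4 (1.05 ± 0.28, limma adjusted p = 0.120).

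Genes of protein synthesis and turnover were near 0, and 0 passed. The median was -0.01 over 80 cytosolic ribosomal proteins, 0.03 over 61 translation factors, -0.05 over 75 mitochondrial ribosomal proteins and 0.07 over 36 proteasome subunits. Over 23 mitochondrial ribosomal and transfer RNAs it was -0.07, with the tyrosine transfer RNA mt-Ty at 139, 226 and 188 CPM with TTR-1186 and 111, 113 and 95.4 CPM with Reference 4 (0.77 ± 0.18, limma adjusted p = 0.0682).

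At 0.2 µM, the second dose at which this pair of agents was compared, 0 of 9657 genes (0%) passed in limma, edgeR or DESeq2, and 475 genes (4.92%) had an unadjusted limma p under 0.05, against 1196 (12.4%) at 2 µM. Of the 36 genes 17 had the same sign at 0.2 µM. The 0.2 µM libraries are not in the 2 µM means, but they entered the shared estimate of spread. Gnmt, Bhmt, Irf7 and Fabp1 had the same sign and an unadjusted p under 0.05 there, with 0.2 µM differences of -0.66, -1.30, -0.63 and -1.07. Bc1 and Rbm8a had an unadjusted p under 0.05 in the opposite direction, at -0.77 and -0.48. Fabp1 had 8.66, 4.90 and 3.19 CPM with TTR-1186 and 15.6, 15.1 and 7.28 CPM with Reference 4 at 0.2 µM, so the groups were close and overlapped. Irf7 had 41.0, 62.7 and 45.2 CPM with TTR-1186 and 79.9, 94.8 and 57.6 CPM with Reference 4, and these also overlapped. Gnmt had 42.8, 55.2 and 53.5 CPM with TTR-1186 and 64.6, 111 and 71.0 CPM with Reference 4, without overlap. Bhmt, whose value is uncertain, had 3.81, 3.34 and 5.25 CPM with TTR-1186 and 17.0, 10.1 and 8.84 CPM with Reference 4, also without overlap. Mt1 had 4092, 4673 and 3099.6 CPM with TTR-1186 and 3769, 4641 and 4091 CPM with Reference 4, all below the Reference 4 libraries at 2 µM. The difference between the doses was tested as an interaction, in which 0 genes (0%) passed in limma and in edgeR and 25 in DESeq2. At an unadjusted p under 0.05 it held 874 genes (9.05%) in limma, and the smallest adjusted p was 0.125. The 36 genes were chosen on the 2 µM difference, which is 1 term of the interaction, so their values are a description. The 2 µM difference minus the 0.2 µM difference was -1.18 for Igfbp1, -0.88 for Mt1, -0.43 for Irf7 and -0.25 for Bhmt.

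**Figure D5:**
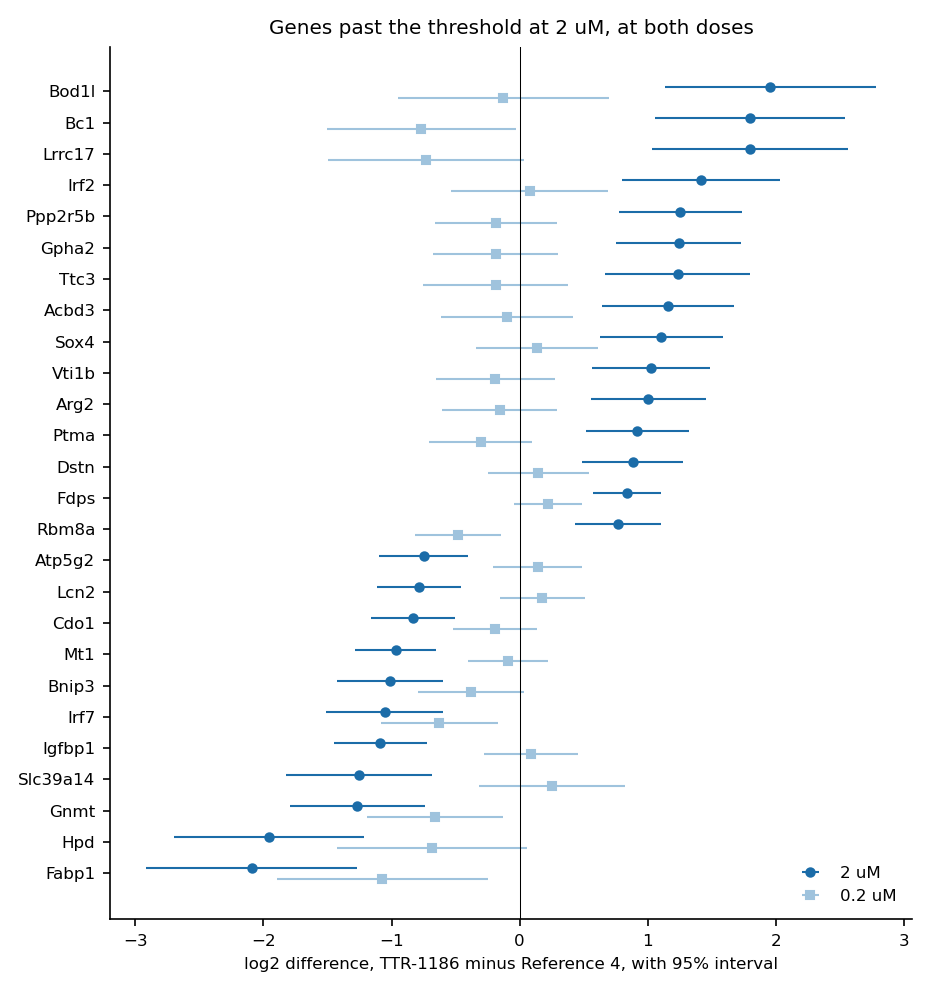
Log2 difference, TTR-1186 minus Reference 4, with its 95% interval from limma for the 26 genes named by rule, at 2 µM (circles) and 0.2 µM (squares). At 0.2 µM most of the genes that rose at 2 µM lie near 0 or below, while Irf7, Gnmt, Hpd and Fabp1 lie on the same side at both doses.

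Against PBS, in comparisons that share the PBS libraries, 5 genes (0.0518%) passed with TTR-1186 at 2 µM and 217 (2.25%) with Reference 4 at 2 µM. For Mt1 the difference from PBS was -0.16 (limma adjusted p = 0.743) with TTR-1186 and 0.81 (0.0130) with Reference 4, and for Lcn2 -0.10 (0.858) with TTR-1186 and 0.68 (0.0280) with Reference 4. For Igfbp1 it was -1.15 (0.00539) with TTR-1186 and -0.07 (0.880) with Reference 4. For Fdps it was 0.45 (0.221) with TTR-1186 and -0.39 (0.0937) with Reference 4, and for Fabp1 -0.96 (0.452) with TTR-1186 and 1.13 (0.111) with Reference 4, so neither agent passed against PBS in these 2 genes. For Bod1l it was -0.29 (0.836) with TTR-1186 and -2.24 (0.0116) with Reference 4, and for Ptma -0.03 (0.98) with TTR-1186 and -0.94 (0.0168) with Reference 4. The genes described here were thus of several kinds, near PBS with TTR-1186 in Mt1, Lcn2 and Ptma, near PBS with Reference 4 in Igfbp1, and with PBS between the agents in Fdps, Fabp1 and Irf2. Over all 36 genes past the threshold between the agents, Reference 4 lay farther from PBS than TTR-1186 did in 26. These were 18 of the 22 that rose and 8 of the 14 that fell. The same share over all genes was not counted. The 36 were also chosen on these same 2 µM values, so the counts are a description. Of the 36, 18 passed against PBS with Reference 4 and 1, Igfbp1, with TTR-1186. A list of 20 genes that the earlier analysis named as raised against PBS at 2 µM, and which is therefore not independent, had 18 lower and 2 higher with TTR-1186 than with Reference 4 and a median of -0.56, with Mt1 its 1 member past the threshold.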

How the data were processed

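The authors deposited CPM, with sums of 1000000 over the same 9657 genes in each of 21 libraries. The submitters' processing notes list cutadapt 1.15, HISAT2 2.1.0, featureCounts and mm10, while the strand setting, the annotation release and any filter on low genes is not given in the sources used here. To within 0.001 reads, 100% of the values were whole multiples of 1 read, and depths so recovered ran from 14158740 to 37410773 reads in the listed genes. GENCODE M21 gave symbols for 9652 genes, RefSeq on GRCm38.p6 gave promoters, and BLAST 2.17.0 compared the last 400 bases of transcripts (at least 50 bases at 95% identity).

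limma 3.58.1 in R 4.3.3 was run on log2(CPM + 1) with 7 group means over 21 libraries, a trended and robust prior and Benjamini-Hochberg adjustment over all genes. This scale understates changes of genes with low CPM. The planned edgeR test became an alternative because the deposited unit is CPM. Alternatives were edgeR 4.0.16 and DESeq2 1.42.0 on the recovered reads, TMM scaling, pseudocounts of 0.5 or 5, only genes with a mean of 10 CPM or more, the compared libraries alone, a replicate block and each library left out. Genes named were the 15 largest rises and falls among genes past the threshold with a mean of at least 10 CPM and no overlap, predicted genes and pseudogenes aside, and, in 37 lists, members ranked first by p, at most 4 where past the threshold and at most 2 where not. The members and lists were chosen with earlier results of these data known. On simulated data for this comparison (9657 genes, 200 changed, split equally between the folds), 37% of 2-fold and 88% of 4-fold changes were recovered and 4 unchanged genes called. This was a single draw in which each gene varied independently. It held no differences shared by many genes of a library, so its rates need not apply to these libraries. Replicates differed beyond sampling noise (lowest chi-square per degree of freedom 46.5).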

Additional observations from a re-analysis of the deposited data

How the results depend on the processing

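At 2 µM the count of 36 genes stayed between 34 and 37 with edgeR under TMM or DESeq2 size factors, TMM-rescaled CPM, both other pseudocounts, a minimum mean of 10 CPM and the 6 libraries alone, and rose to 127 (89 higher) in DESeq2. Leaving out 1 library gave 2 to 48 genes. Of the 36, 20 also passed with the 6 libraries alone. With the replicate block 34 genes passed, 30 of them among the 36; no label says that a number marks a shared animal or batch, and same-number correlations were 0.17, -0.08 and -0.07. At 0.2 µM leaving out 1 library gave 0 to 2 genes, with 2 without Reference 4 0.2 µM replicate 3. The interaction gave 25 genes in DESeq2 and 0 to 1 when 1 library was left out, with 1 without replicate 2 of either agent at 2 µM and without replicate 3 of either agent at 0.2 µM. Values that changed sign were those of Csf1r (main value -0.05), at 0.20 without Reference 4 2 µM replicate 2, 0.19 without TTR-1186 2 µM replicate 1 and down to -0.24 without TTR-1186 2 µM replicate 2, and of Stab1 (main value -0.61), at 0.051 without TTR-1186 2 µM replicate 2 and down to -0.98 without TTR-1186 2 µM replicate 3, and the cause was not tested. Over 80 named genes and their alternatives, 1048 of 1193 values kept direction and side of the threshold, 122 lost it, 20 gained it and 3 reversed. The 1048 include genes that passed neither in the main fit nor in the alternative. Only genes past the threshold in the main fit could lose it, so the 1048 do not measure how stable the calls were. Of 37 lists 12 had a median of at least 0.2 in size and 0 of these changed sign, while 15 of the others did in some alternative. Scalings moved the median of all genes by less than 0.1 on the log2 scale. With 3 libraries a group, differences near 2-fold can be missed.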
